A study of Homo sapiens with 12 samples.

Results

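Aminoacyl-tRNA synthetases are the enzymes that join each amino acid to its transfer RNA. The members here are 35 listed genes, 19 for cytosolic or shared enzymes and 16 for mitochondrial enzymes with symbols ending in 2, out of 19775 genes that the array names. They were listed by name and not by a cut on any measured value, though with earlier results of these data known. Each was read from its brightest probe set that carries a single gene symbol. By that rule 32 of the 35 were measured, 17 cytosolic and 15 mitochondrial, and all 32 passed the filter on dim signals. The probe sets for MARS1, QARS1 and TARS2 also carry the symbol of a microRNA gene, so these 3 genes were not analysed here.

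The samples were 12 cultures of SK-OV-3, an established human ovarian cancer line, each on its own Affymetrix array. The 24 h treatments, in 3 cultures each, were PBS (saline, the control), recombinant BMP2 (100 ng/ml), DM (5 µM), and BMP2 together with DM (BMP2+DM, each at its own dose above). BMP2 is a secreted ligand whose receptors act through SMAD proteins, and the labels name DM by these letters only. A level below is a MAS5 signal, a linear intensity whose trimmed mean is the same on every array as deposited. A change is a difference of log2 signal ± its standard error from limma, a linear model fitted to the 12674 genes that passed the filter, and "called" means a Benjamini-Hochberg adjusted p under 0.05 over all of them.

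In the cytosol and in the mitochondrion separate sets of synthetases feed separate ribosomes, and most of both sets are encoded in the nucleus by separate genes. GARS1 and KARS1 are exceptions, each giving the enzyme of both compartments. Synthetases fall into class I and class II by the fold of the catalytic domain, and several cytosolic ones sit in a multi-synthetase complex on scaffold proteins. When cells sense a lack of amino acids or another stress that acts on the initiation factor eIF2, translation of the transcription factor ATF4 goes up, and genes of cytosolic synthetases are among its known targets.

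The arrays were alike as a whole. Their median signals ran from 86.7 to 112, and the mean correlation of an array with the others of its group ran from 0.934 to 0.956, lowest for BMP2 replicate 1. The cell line's markers ERBB2, KRT8, KRT18, KRT19 and PAX8 were all above the filter signal of 69.8. Markers of other cell types above it numbered 4 of 5 for mesothelium, 2 of 5 for fibroblasts, 1 of 5 for endothelium and 0 of 4 for leukocytes. No comparison called any of these 7, and their summed signals overlapped between arrays with and without DM in every list (mesothelial 1293 to 1884 with DM and 1171 to 2053 without). The cell line's markers summed to 45889 to 51332 with DM and 38744 to 45927 without, and ERBB2, KRT18 and KRT19 were called in the averaged DM effect, at 0.22, 0.26 and 0.20. Their part in the results was not tested. In a bulk culture a change in RNA per cell and a change in the make-up of the culture cannot be told apart.

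Most cytosolic synthetases were called higher in cultures with DM, led by WARS1, SARS1, YARS1, CARS1 and GARS1, and 2 mitochondrial ones were. In the effect of DM averaged over cultures without and with BMP2 (6 arrays with DM against 6 without), 11 of 17 cytosolic members were called higher and none lower, where 6.78% of all genes tested were called higher. The median change of the 17 was 0.43, against 0.03 for all genes. Of the 15 mitochondrial members 2 were called higher and none lower, with a median of 0.07 and values above 0 for 11 of the 15. Whether the response of the cytosolic group differed from that of the mitochondrial group was not tested as a group.

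**Figure D1:**
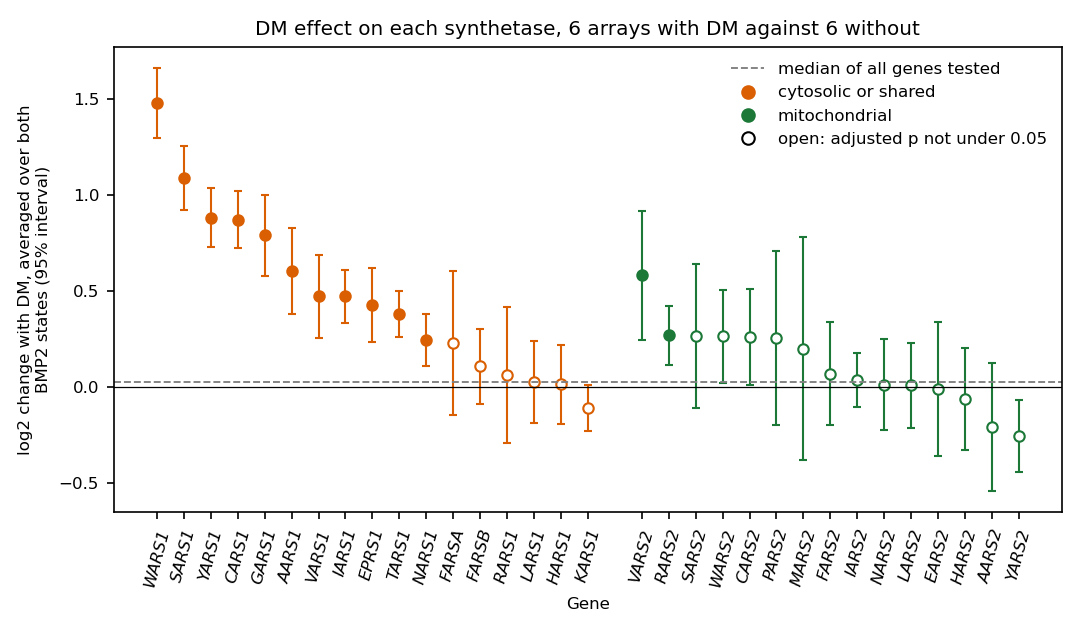
DM effect on each of the 32 measured synthetases (log2 change averaged over both BMP2 states, 6 arrays with DM against 6 without, bars are 95% intervals), with cytosolic genes left and mitochondrial genes right. Filled points passed an adjusted p under 0.05: 11 cytosolic genes led by WARS1 at 1.48, and VARS2 and RARS2 among the mitochondrial ones.

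The largest change was that of WARS1, the cytosolic tryptophanyl-tRNA synthetase, a gene also known for its induction by interferon. Its signal was 1727, 1816 and 1620 with PBS, 2109, 2126 and 1535 with BMP2, 4996, 4244 and 5009 with DM, and 5302, 5100 and 5740 with both. All 6 arrays with DM lay above all 6 without. WARS1 rose by 1.46 ± 0.12 (2.76-fold) in DM against PBS, with an adjusted p of 9.64e-07 by limma. It rose 2.83-fold in BMP2+DM against BMP2 (adjusted p = 5.2e-07). Another probe set of WARS1 had an averaged change of 1.26, also called.

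SARS1, the seryl-tRNA synthetase, came next. Its signal was 4467, 4471 and 4216 with PBS, 4755, 6236 and 4820 with BMP2, 10410, 8886 and 11233 with DM, and 9762, 9811 and 11321 with both. The lowest array with DM stood well above BMP2 replicate 2, the highest without it. SARS1 rose by 1.21 ± 0.11 (2.31-fold) in DM against PBS and by 0.97 ± 0.11 (1.97-fold) in BMP2+DM against BMP2. Another probe set of SARS1 had an averaged change of 0.57 against 1.09, and both were called. YARS1, the tyrosyl enzyme, had 3210, 3694 and 3440 with PBS, 4099, 3969 and 3342 with BMP2, 6426, 6174 and 6894 with DM, and 6169, 7573 and 6771 with both. Here too the 6 arrays with DM did not overlap the others. YARS1 rose by 0.92 ± 0.10 and 0.85 ± 0.10 in the same 2 comparisons. With its probe sets averaged YARS1 had 0.60 and 0.47 there and 0.54 in the averaged effect, and it was called in none of the 3.

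CARS1 and GARS1 rose in both comparisons, with larger values in DM against PBS, and the difference between the comparisons was not called for either gene. CARS1, the cysteinyl enzyme, had 3187, 2855 and 3110 with PBS, 3694, 3058 and 3364 with BMP2, 6872, 6019 and 5683 with DM, and 5703, 5268 and 5729 with both. It rose by 1.02 ± 0.10 (2.03-fold) and by 0.73 ± 0.10 (1.65-fold). The 3 probe sets of CARS1 above the filter gave averaged changes of 0.87, 0.99 and 0.90. With all its probe sets averaged, CARS1 had 0.68 (adjusted p = 0.302) and 0.998 (adjusted p = 0.0594) in the 2 comparisons and was called in neither, though still in the averaged effect (0.84). GARS1, the glycyl enzyme of both compartments, had 4732, 4404 and 4140 with PBS, 3824, 6767 and 4491 with BMP2, 9347, 9037 and 8698 with DM, and 7116, 7039 and 7299 with both. The DM arrays of GARS1 lay above those with both reagents, and BMP2 replicate 2 stood apart from its group. GARS1 rose by 1.03 ± 0.14 (2.04-fold) in DM against PBS and by 0.55 ± 0.14 (1.47-fold) in BMP2+DM against BMP2. The interaction (the change in BMP2+DM against BMP2 minus that in DM against PBS) was -0.48 ± 0.20 for GARS1 (adjusted p = 0.519 by limma) and -0.29 ± 0.14 for CARS1 (adjusted p = 0.577). The call of GARS1 in BMP2+DM against BMP2 was lost without BMP2 replicate 1 (0.38) or 3 (0.49), and without BMP2+DM replicate 1 (0.55), 2 (0.56) or 3 (0.54). In all, 9 of 24 alternatives lost that call, among them a fit of only the groups compared.

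**Figure D2:**
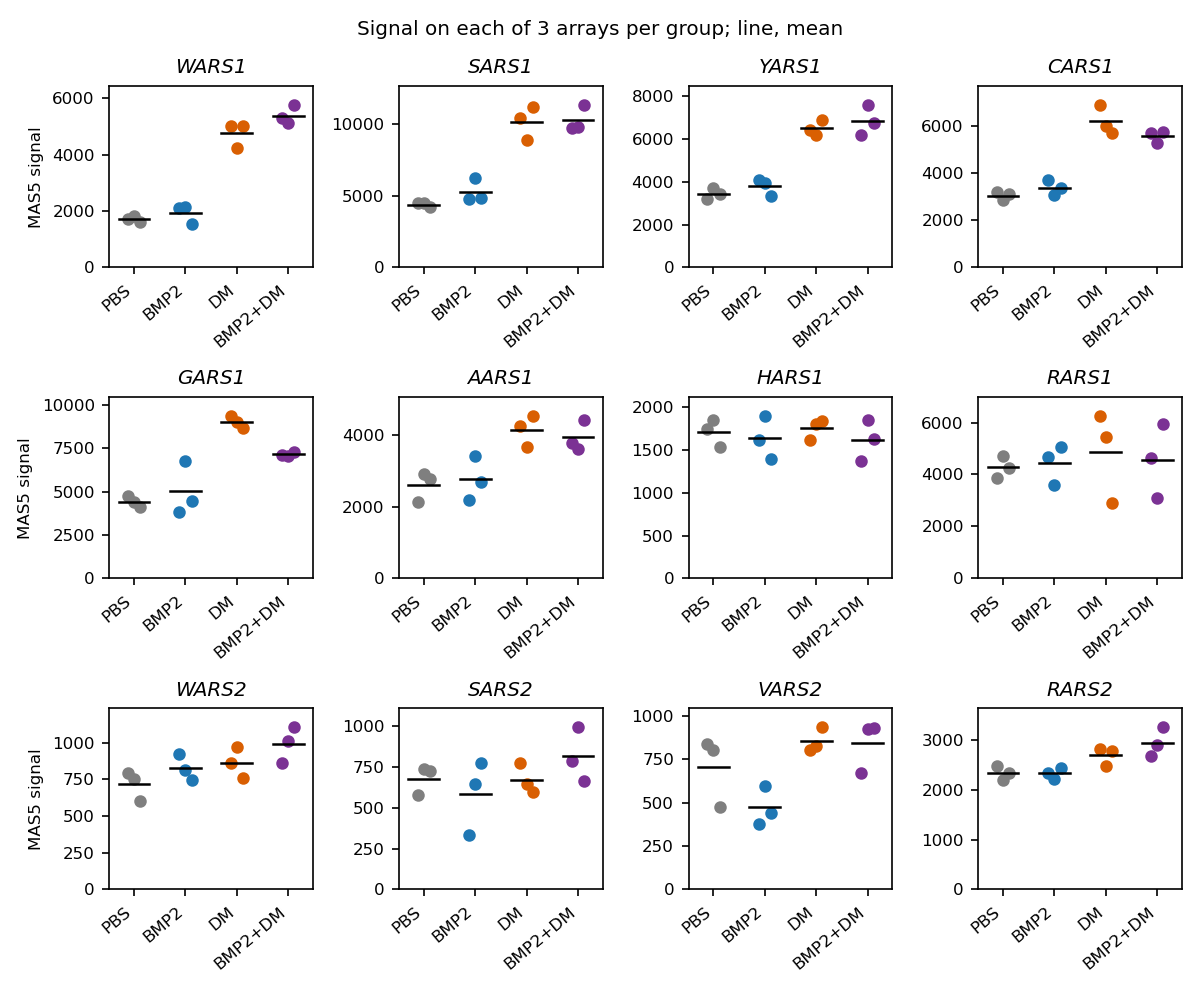
MAS5 signal of 12 synthetases on each of the 3 arrays per group (points) with the group mean (line), on linear axes that start at 0. In the 6 panels from WARS1 to AARS1 the arrays with DM lie above those without, while HARS1, RARS1 and the mitochondrial SARS2 overlap between all groups, and WARS2 between all but BMP2+DM and PBS.

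AARS1, IARS1 and TARS1 changed less, again without overlap between the 6 arrays with DM and the 6 without. AARS1, the alanyl enzyme, ran from 2131 to 3431 without DM and from 3610 to 4531 with it, and its averaged change was 0.60 ± 0.11 (adjusted p = 0.00118 by limma). IARS1, the isoleucyl enzyme of the multi-synthetase complex, had 10328, 11710 and 10813 with PBS and 17721, 15222 and 16601 with DM. It rose by 0.59 ± 0.09 in DM against PBS, and its averaged change was 0.47 ± 0.07. TARS1, the threonyl enzyme, had 9458, 8647 and 8510 with PBS and 12371, 11585 and 10972 with DM, and its changes were 0.39 ± 0.08 in DM against PBS and 0.37 ± 0.08 in BMP2+DM against BMP2. All 3 were called in both of these comparisons. The averaged calls of AARS1 and IARS1 held in each of the 23 alternatives run for them, and that of TARS1 was lost with its probe sets averaged (0.27). In DM against PBS the call of AARS1 was lost without PBS replicate 1 (0.54) and DM replicate 1 (0.66) or 3 (0.61), and that of TARS1 without PBS replicate 3 (0.36) or DM replicate 1 (0.35). In BMP2+DM against BMP2 the call of AARS1, at 0.53 ± 0.15, was lost without BMP2 replicate 1 (0.37) or 3 (0.52), BMP2+DM replicate 1 (0.56), 2 (0.59) or 3 (0.44), PBS replicate 3 or DM replicate 1. Centring each array on its median, a variance model without an intensity trend and a fit of only the groups compared also lost it. In all, 12 of 24 alternatives lost that call in BMP2+DM against BMP2. There the call of IARS1, at 0.35 ± 0.09, was lost without BMP2 replicate 1 (0.31) or 3 (0.32) and BMP2+DM replicate 1 (0.34) or 3 (0.29), and that of TARS1 without BMP2+DM replicate 3 (0.32).

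EPRS1, NARS1 and VARS1 were called in the averaged effect but not in every comparison. EPRS1, a single protein that charges both glutamate and proline tRNAs, had 3891, 3735 and 3653 with PBS, 3588, 4914 and 3489 with BMP2, 4915, 4577 and 6343 with DM, and 5284, 5169 and 4915 with both. BMP2 replicate 2 reached the level of the DM arrays. The averaged change of EPRS1 was 0.43 ± 0.09 (adjusted p = 0.00514 by limma), and it was not called in DM against PBS (0.48 ± 0.13, adjusted p = 0.0514). Its averaged call held in each of the 23 alternatives run, at 0.36 to 0.50, and EPRS1 was also called in DM against PBS without BMP2 replicate 1, 2 or 3 or DM replicate 2. It was called in BMP2+DM against BMP2 without BMP2 replicate 2 or DM replicate 3. Its other probe sets above the filter had 0.39 and 0.54, neither of them called.

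NARS1, the asparaginyl enzyme, had 14615, 13038 and 13432 with PBS, 15644, 18115 and 14472 with BMP2, 17113, 17801 and 18142 with DM, and 16976, 16465 and 18699 with both. The BMP2 arrays of NARS1 overlapped those with DM. It rose by 0.37 ± 0.09 in DM against PBS and had 0.12 ± 0.09 in BMP2+DM against BMP2, which was not called. The call in DM against PBS was lost without PBS replicate 2 (0.34) or 3 (0.36) and without DM replicate 1 (0.39), 2 (0.37) or 3 (0.35). The averaged change was 0.24 ± 0.06, a call lost without BMP2 replicate 3 (0.21) or BMP2+DM replicate 3 (0.22). VARS1, the valyl enzyme, which binds the elongation factor eEF1, had its larger value in the other comparison. It had 1026, 1419 and 1113 with PBS, 1135, 1123 and 1136 with BMP2, 1462, 1437 and 1159 with DM, and 1679, 2161 and 1883 with both. Only the arrays with both reagents stood clear of the rest. VARS1 rose by 0.75 ± 0.14 in BMP2+DM against BMP2 and had 0.20 ± 0.14 in DM against PBS, and the interaction of 0.55 ± 0.20 was not called (adjusted p = 0.451 by limma). With its 2 probe sets averaged, of which the other lies below the filter at a change of -0.72, VARS1 had -0.13 and was not called.

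The other 6 cytosolic members were not called in any comparison. HARS1, the histidyl enzyme, had 1749, 1853 and 1529 with PBS, 1612, 1891 and 1398 with BMP2, 1620, 1798 and 1838 with DM, and 1373, 1852 and 1628 with both. All 4 groups overlapped, and the averaged change was 0.01 with a 95% interval from -0.19 to 0.22. LARS1, the leucyl enzyme and a leucine sensor upstream of mTORC1, had an averaged change of 0.02 with an interval from -0.19 to 0.24. It had 2552, 1841 and 2472 with PBS, 2176, 1870 and 2043 with BMP2, 2309, 2220 and 1797 with DM, and 2307, 1942 and 2591 with both. These arrays overlapped between all groups. RARS1, the arginyl enzyme, had 3846, 4716 and 4266 with PBS, 4657, 3593 and 5042 with BMP2, 6234, 5424 and 2896 with DM, and 4653, 3087 and 5959 with both. The highest and the lowest of these 12 arrays were both DM arrays, and the averaged change was 0.06 with an interval from -0.30 to 0.42. KARS1, the lysyl enzyme of both compartments, had -0.11 ± 0.06 with an interval from -0.23 to 0.01. FARSA and FARSB, the catalytic and the other subunit of the phenylalanyl enzyme, had 0.23 ± 0.18 and 0.11 ± 0.09. HARS1 and HARS2 are the only listed genes that are next to each other among protein-coding genes of the RefSeq annotation, on chromosome 5, and neither was called.

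**Figure D3:**
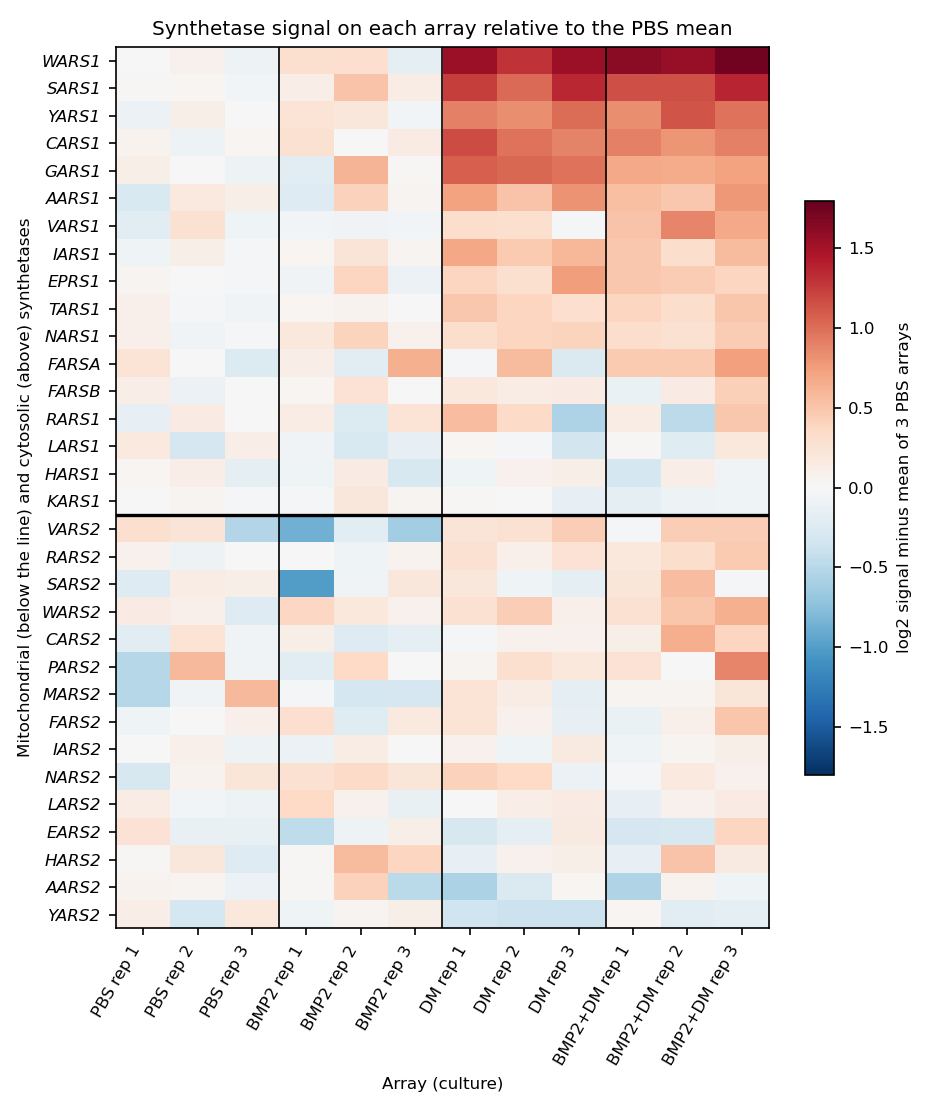
Log2 signal of the 32 synthetases (rows, cytosolic above the line and mitochondrial below, each sorted by the averaged DM effect) on the 12 arrays (columns), relative to the mean of the 3 PBS arrays. The upper rows are raised in all 6 arrays with DM, and BMP2 replicate 2 is raised in part for GARS1, SARS1, AARS1, EPRS1 and NARS1.

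The DM effect was measured in separate cultures without and with BMP2, in comparisons that share no array. Both took the spread of each gene from the fit of all 12 arrays, so their calls are not independent. In DM against PBS, 9 of 17 cytosolic members were called higher and none lower, where 1.86% of all genes were called higher, and the median was 0.39. In BMP2+DM against BMP2, 9 of 17 were called higher and none lower, where 4.08% of all genes were, and the median was 0.37. The 8 genes called in both were AARS1, CARS1, GARS1, IARS1, SARS1, TARS1, WARS1 and YARS1, that is 47.1% of the measured cytosolic members, where 1% of all genes were called higher in both. The same 8 were the cytosolic members whose 6 arrays with DM all lay above the 6 without, a pattern that 3.22% of all genes showed. No mitochondrial member was called in both. In BMP2+DM against BMP2 the cytosolic count fell to 5 without BMP2+DM replicate 3, and to 5 with each array centred on its median or with a variance model without an intensity trend. With the probe sets of each gene averaged, which takes in dim ones, the counts were 4 in DM against PBS and 3 in BMP2+DM against BMP2.

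**Figure D4:**
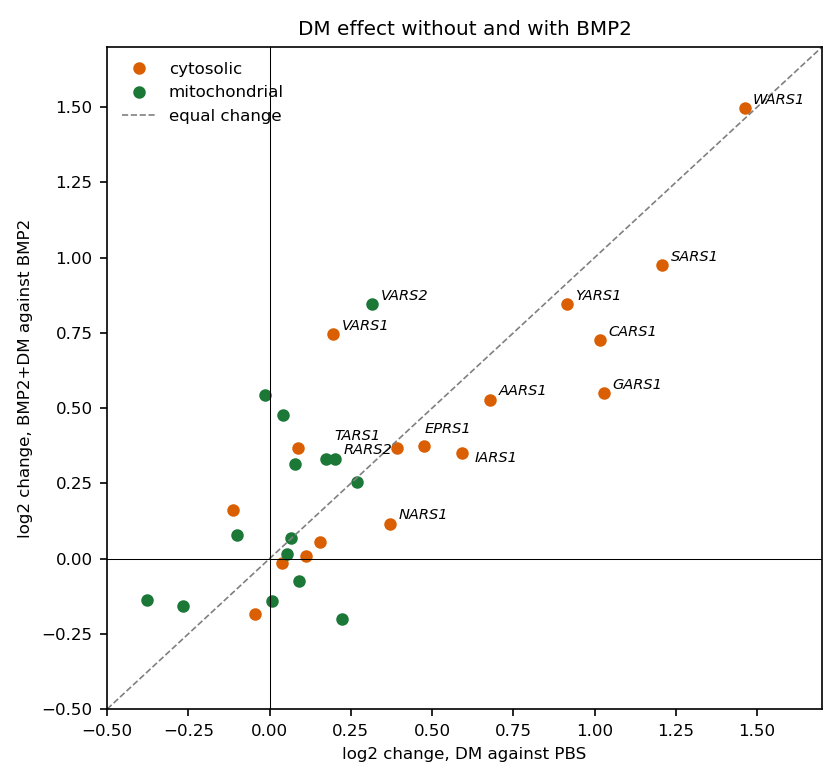
Log2 change of each measured synthetase in DM against PBS (x axis) and in BMP2+DM against BMP2 (y axis), with the line of equal change. WARS1 lies near the line, at 1.46 on the x axis, GARS1 and NARS1 lie below it, VARS1 and VARS2 lie above it, and the mitochondrial genes span -0.38 to 0.32 on the x axis.

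The cytosolic members were also counted by structure and assembly, where 6.78% of all genes were called higher. Of 8 measured class I members 6 were called in the averaged effect, with a median of 0.47, and of 9 class II members 5 were, with a median of 0.24. EPRS1, which charges both glutamate and proline tRNAs, was counted in class I only. Of the 5 measured members of the multi-synthetase complex, IARS1 and EPRS1 were called and KARS1, LARS1 and RARS1 were not, with a median of 0.06. Of the 12 other cytosolic members 9 were called, with a median of 0.54. AIMP1, the 1 scaffold gene of 3 listed that was measured, had 0.09 ± 0.07 and was not called. These subgroups were not tested against each other.

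The mitochondrial enzymes charge tRNAs for the few proteins encoded by the mitochondrial genome. VARS2, the valyl enzyme, had 840, 806 and 475 with PBS, 378, 598 and 444 with BMP2, 803, 826 and 935 with DM, and 670, 928 and 934 with both. Its BMP2 arrays were low, and 1 PBS array overlapped them. VARS2 rose by 0.85 ± 0.23 in BMP2+DM against BMP2 (adjusted p = 0.0296 by limma) and had 0.32 ± 0.23 in DM against PBS, which was not called. That call was lost without BMP2 replicate 1 (0.70) or 3 (0.81) and without BMP2+DM replicate 2 (0.77) or 3 (0.76). The averaged change of VARS2 was 0.58 ± 0.16, a call lost without PBS replicate 3 (0.45), BMP2 replicate 1 (0.51), DM replicate 3 (0.55) and BMP2+DM replicate 2 (0.54) or 3 (0.54).

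RARS2, the arginyl enzyme, had 2471, 2196 and 2342 with PBS, 2343, 2211 and 2433 with BMP2, 2809, 2478 and 2784 with DM, and 2671, 2900 and 3248 with both. It was the only mitochondrial member whose 6 arrays with DM all lay above the 6 without. The averaged change was 0.27 ± 0.07 (adjusted p = 0.0227 by limma), while the 2 other probe sets of RARS2 above the filter had 0.01 and 0.23, neither of them called. The call was lost without PBS replicate 2 (0.25), DM replicate 1 (0.25) or BMP2+DM replicate 3 (0.23), and with its probe sets averaged (0.06).

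The remaining 13 mitochondrial members were not called in any comparison. YARS2, the tyrosyl enzyme, had the lowest averaged change of the 15. Its signal was 2397, 1768 and 2501 with PBS, 2086, 2263 and 2358 with BMP2, 1714, 1684 and 1678 with DM, and 2254, 1904 and 1948 with both. The DM arrays were all below those of every other group, and those with both reagents overlapped the PBS and BMP2 arrays. Its averaged change was -0.26 ± 0.09 (adjusted p = 0.0752 by limma). In DM against PBS it had -0.38 ± 0.13, and it was the 1 mitochondrial member called there, in the lower direction, without PBS replicate 2, where the count over all 12 arrays was 0. Without that array YARS2 was called in the averaged effect as well. WARS2, the tryptophanyl enzyme, had 792, 755 and 603 with PBS, 926, 811 and 749 with BMP2, 864, 968 and 757 with DM, and 859, 1010 and 1104 with both. The arrays with both reagents lay above the PBS arrays, while the BMP2 and DM arrays overlapped each of these groups, and the averaged change was 0.26 ± 0.12 (adjusted p = 0.161). IARS2, LARS2, NARS2, FARS2, EARS2 and HARS2 had averaged changes from -0.07 to 0.07. Other probe sets above the filter, present for LARS2, FARS2 and EARS2, had changes from -0.21 (LARS2) to 0.43 (FARS2), none of them called. For IARS2, the isoleucyl enzyme, the 95% interval ran from -0.11 to 0.18. AARS2, the alanyl enzyme, had -0.21 ± 0.16, and another of its probe sets had -1.12 (adjusted p = 0.0703 in the fit of every probe set). With its probe sets averaged AARS2 was called in BMP2+DM against BMP2. PARS2, MARS2, SARS2 and CARS2 had 0.25, 0.20, 0.26 and 0.26, with standard errors from 0.12 to 0.28.

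For 11 amino acids the cytosolic and the mitochondrial gene were both measured and have symbols that differ only in the final digit. These pairs are set side by side. Phenylalanine, glutamate and proline were left out, since their measured genes (FARSA, FARSB and FARS2, and EPRS1, EARS2 and PARS2) are not named in this way. For tryptophan the averaged DM change was 1.48 for WARS1 and 0.26 for WARS2. For tyrosine it was 0.88 for YARS1 and -0.26 for YARS2, and for serine 1.09 for SARS1 and 0.26 for SARS2. On each array the log2 distance between WARS1 and WARS2 was larger with DM than without, by 1.22 on average (SD within groups 0.21), with no overlap between the 6 arrays and the other 6. The same held for YARS1 and YARS2 (1.14, SD 0.26) and for IARS1 and IARS2 (0.44, SD 0.10). WARS1, YARS1 and IARS1 already showed no such overlap on their own, and the share of other gene pairs with this pattern was not counted. The distances for AARS, CARS and SARS widened by 0.82, 0.61 and 0.83, with overlapping arrays. For HARS, LARS, NARS, RARS and VARS the distance moved by -0.21 to 0.23, in each case less than the SD within groups. The pairs are a description with no test.

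BMP2 itself was not followed by a called change in any synthetase. In BMP2 against PBS limma called 0 of 32, where 0.631% of all genes were called, and 3 had an unadjusted p under 0.05: SARS1 at 0.25 ± 0.11, NARS1 at 0.23 ± 0.09 and VARS2 at -0.56 ± 0.23. Of all 12674 genes 1328 did, a share near that of the members. The cytosolic median was 0.10 and the mitochondrial median 0.01. Of the 11 cytosolic members called with DM, 7 had their highest signal among the 6 arrays without DM in BMP2 replicate 2. ATF4 on that array was 10141, against 7468 to 8292 on the other 5 arrays without DM. Its part in the BMP2 values was not tested. In BMP2+DM against DM limma called 0 of 32, where 0.0473% of all genes were called, with GARS1 (-0.34 ± 0.14) and VARS1 (0.50 ± 0.14) at an unadjusted p under 0.05. For the interaction limma called 0 of 32, where 0.118% of all genes were called, and the same pair of genes had an unadjusted p under 0.05. Of all 12674 genes 1125 had one in BMP2+DM against DM and 1103 for the interaction, so these counts are not above the background.

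Regulators of the amino acid response were among the genes that rose with DM. Of 14 listed regulators and eIF2 kinases, 4 were called higher in DM against PBS and none lower, against 1.86% of all genes called higher. ATF4 was 8292, 7868 and 7933 with PBS and 19141, 18208 and 22435 with DM. ATF4 rose by 1.31 ± 0.11, TRIB3, a pseudokinase, by 1.57 ± 0.16, NUPR1, a stress-induced chromatin protein, by 2.75 ± 0.23 and CEBPG, a bZIP partner of ATF4, by 0.70 ± 0.13. Of the 14, 5 were called higher in BMP2+DM against BMP2 and 8 in the averaged effect, and none lower in either. Of all genes 4.08% and 6.78% were called higher in these comparisons. The 4 eIF2 kinases EIF2AK1, EIF2AK2, EIF2AK3 and EIF2AK4 had averaged changes from -0.16 to 0.00 and were not called. Genes of other steps of translation were listed beside them. Of 12 measured mitochondrial translation genes MTFMT, which formylates the initiator methionyl-tRNA, was called in the averaged effect, at 0.43 ± 0.11, where 6.78% of all genes were called higher. Of 5 measured genes of cytosolic elongation and tRNA export EEF2, the translocation factor, was called there, at 0.23 ± 0.06. XPOT, the tRNA exporter, had 0.00 ± 0.06.

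Promoter sequence was compared because 11 cytosolic members rose together. ATF4 binds composite C/EBP-ATF response elements, whose core is written TGATGNAA. That core was searched on both strands in RefSeq windows on GRCh38.p14 that run from 250 bases before to 50 after a gene's start. Windows were given for 30 of the 35 members, 27 of them measured. Of 9 cytosolic members called higher with DM that have a window, 6 held the core: AARS1, CARS1, GARS1, IARS1, NARS1 and TARS1. Of the 5 cytosolic members with a window that were not called, 0 held it. Of the 13 measured mitochondrial members with a window, only YARS2 held it. Among all tested genes with a window, 2.84% held it, and among all 35116 windows 3.62% did. A match of these letters is a description and not a binding site.

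The matches of the measured members are shown with 11 bases on either side, 5′ to 3′ on the gene's strand, with the core in capitals. It reads TTGCATCA, or TTTCATCA in GARS1, where it lies on the opposite strand.
AARS1, chr16:70289675-70289704, minus strand: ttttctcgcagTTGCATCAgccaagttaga
CARS1, chr11:3057407-3057436, minus strand: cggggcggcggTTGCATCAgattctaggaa
GARS1, chr7:30594834-30594863, plus strand: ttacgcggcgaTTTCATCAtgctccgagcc
IARS1, chr9:92293692-92293721, minus strand: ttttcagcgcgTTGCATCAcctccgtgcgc
NARS1, chr18:57621804-57621833, minus strand: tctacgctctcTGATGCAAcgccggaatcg
TARS1, chr5:33440956-33440985, plus strand: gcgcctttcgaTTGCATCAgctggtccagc
YARS2, chr12:32756076-32756105, minus strand: atccacactgcTGATGGAAaaattaagttt

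In 5 of the 6 called genes the 8 letters were TGATGCAA, and in GARS1 they were TGATGAAA. CARS1, GARS1 and TARS1 also had a window of another annotated start, which did not hold the core. Distances are from the start whose window held it. The match began 2 bases before the annotated start in CARS1, 13 before it in IARS1 and 33 before it in GARS1. In TARS1 it began 2 bases past the start and in NARS1 14 past it, while in AARS1 it began 187 bases before. The match of YARS2, whose change was not called, was TGATGGAA and began 197 bases before the start. The E-box CACGTG is the core bound by MYC and MAX. Of the 27 measured members with a window, IARS1, CARS2, EARS2 and MARS2 held it, a share near the 12.5% of tested genes. WARS1 and SARS1, which had the largest changes, and EPRS1 held no TGATGNAA in their windows, which says only that these letters are not in this stretch.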

How the data were processed

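RNA from 12 SK-OV-3 cultures, labelled as biological replicates, was measured on 1 array each, with 3 arrays in each of 4 groups, a number that limits the precision. Per the submitters' processing notes the signals come from MAS5, with no version given in the sources used here. The deposited values are linear intensity values, 1 per probe set, and their 2% trimmed means are equal on the 12 arrays to within 1, so no further scaling was applied. Of 54613 probe sets 41091 carry 1 gene symbol in the platform annotation, and 0 symbols needed updating.

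Signals under 1 (396 values) were raised to 1 and taken to log2. A gene was its probe set with the highest mean, kept if above the median of all probe sets (69.8), which left 12674 genes. The 12 arrays were fitted together in limma 3.58.1 (R 4.3.3), with group means as coefficients and an intensity trend in the variance (8 residual and 9.24 prior degrees of freedom). Tests were two-sided. The code was tested on simulated data. The members and lists were chosen with earlier results of these data known. All 32 measured members may be named, and array values are given for members called with DM, for the 3 cytosolic members with the smallest averaged DM effect and for the 4 mitochondrial ones with the smallest p. Genes of other lists were up to 4 called ones with the smallest p, and the others named (the eIF2 kinases, MTFMT, EEF2, XPOT and the markers) were chosen after their values were seen. Promoter windows came from a RefSeq table.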

Additional observations from a re-analysis of the deposited data

Results flagged for a closer look

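The effect of BMP2 on 4 of the 32 measured synthetases had opposite signs in every array without and with DM, measured from the mean of the matching group without BMP2. The share of all genes with this pattern was not counted. The interaction was -0.29 for CARS1, -0.24 for IARS1, 0.55 for VARS1 and -0.42 for NARS2. By limma none of the 4 interactions was called (adjusted p = 0.577, 0.63, 0.451 and 0.627), and the opposite signs themselves were not tested.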

How the results depend on the processing

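Alternatives tried 1 at a time were other scalings, an offset of 32, other filters, other choices of probe set, other variance models, array weights, a replicate block, only the groups compared, and each array left out in turn, with probe sets and tested genes kept. The cytosolic count in the averaged DM effect, 11, was 10 to 11 with each array left out, 8 with probe sets averaged per gene (TARS1, VARS1 and YARS1 lost) and 10 without an intensity trend (NARS1 lost). In DM against PBS it was 9, and 6 to 10 with an array left out, and 4 with probe sets averaged per gene. In BMP2+DM against BMP2 it was 9, and 5 to 10 with an array left out, 5 with median centring, 3 with probe sets averaged per gene and 5 without an intensity trend. EPRS1 accounted for the counts above 9. The mitochondrial count took calls in either direction and ran from 0 to 1 in DM against PBS with an array left out (YARS2, lower). In BMP2+DM against BMP2 it was 1, and 0 to 1 with an array left out, 0 with median centring, 2 with the brightest 30% of probe sets and 0 without a trend. With probe sets averaged per gene the call of VARS2 there was lost and AARS2 was called. Both probe sets of AARS2 had averaged DM changes below 0 (-0.21 and -1.12). In the averaged effect the mitochondrial count was 2, and 0 to 2 with an array left out, 1 with median centring, 1 with the mean of probe sets and 0 without a trend. VARS1 turned to -0.13 in the averaged effect with the mean of probe sets, which takes in its dim probe set. For the others the cause was not tested. Same-numbered replicates did not deviate together (the correlation of their deviations from the group means was above 0.1 in 0 of 18 pairs). The labels do not say whether they share anything besides a number. With a replicate block the cytosolic counts were 8, 9 and 11 in these 3 comparisons and the mitochondrial counts 0, 1 and 2, and the call of NARS1 in DM against PBS was lost (adjusted p = 0.051 by limma). No call of a synthetase appeared in the BMP2 comparisons or the interaction under the alternatives run. WARS1 and SARS1 kept their calls under every alternative run for the 3 DM comparisons. The signals carry no standard error per probe set, so dim members such as MARS2 are limited by the spread of their 3 arrays.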
